A study of Mus musculus with 10 samples.

Results

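The 46 genes described here are the Wnt ligands, their receptors and secreted antagonists, and the proteins that carry the signal to the nucleus. They were picked by symbol from the 21887 protein-coding genes of the mouse gene table, and the set was proposed with earlier results of these data known. They comprise 19 Wnt ligands, the 10 Frizzled receptors Fzd1 to Fzd10, the 2 co-receptors Lrp5 and Lrp6, 8 secreted antagonists (Sfrp1, Sfrp2, Sfrp4, Sfrp5 and Dkk1 to Dkk4), 3 intracellular genes (Ctnnb1, Axin1 and Axin2) and the 4 TCF/LEF factors Lef1, Tcf7, Tcf7l1 and Tcf7l2. Chromatin immunoprecipitation and sequencing (ChIP-seq) was done on Glast+ retinal cells of C57BL/6 mice aged 28 days after birth. Müller glia, radial glia that span the retina, express the glutamate transporter Glast (gene Slc1a3), which serves to isolate them. H3K4me3, H3K4me1, H3K27me3 and H3K9me3 were each mapped in 2 experiments, Exp1 and Exp2, and no treatment, mutant or other cell population was compared. The labels do not say which animals entered each experiment, or whether they were pooled, so the spread between experiments may be technical.

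Wnt proteins are lipid-modified secreted ligands that bind a Frizzled receptor together with Lrp5 or Lrp6. Binding stops the destruction complex, of which the axins are scaffolds, from degrading beta-catenin, the product of Ctnnb1, which then enters the nucleus and activates genes through TCF/LEF factors. Sfrp proteins bind Wnt ligands, and Dkk proteins other than the divergent Dkk3 block the LRP co-receptors. In the retina the pathway is known for its part in eye field and ciliary margin development, in vessel growth, and in the proliferation of Müller glia after injury in fish. H3K4me3 is typical of active promoters, H3K4me1 of enhancers and promoter flanks, H3K27me3 of Polycomb repression and H3K9me3 of heterochromatin.

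For each library the authors deposited a list of enriched regions, called islands. A gene was taken to carry a mark if islands of both experiments touched the window of 1 kb either side of the same annotated end, by at least 1 bp. The mark was also measured as coverage, the percentage of the gene and 1 kb on each side that lay under islands. With 2 experiments a mark and 1 condition no test between groups was possible, so counts of these genes are set beside the share of all protein-coding genes called by the same rule. H3K4me3 lay at 9 of 10 Müller glia markers, all but Aqp4, and at 0 of 6 microglia, 1 of 5 astrocyte, 1 of 5 pigment epithelium, 2 of 6 endothelial and 2 of 5 pericyte markers. It also lay at 6 of 8 rod, 6 of 6 cone, 5 of 6 bipolar, 5 of 6 amacrine and 2 of 6 ganglion cell markers. Counted anywhere in the gene or 1 kb around it, H3K4me3 was at 10 of 10 Müller glia markers, against 63.1% of all protein-coding genes. Aqp4 was covered to 20.3% and 24.6%. By this rule H3K4me3 was at 8 of 8 rod, 6 of 6 cone, 6 of 6 bipolar and 6 of 6 amacrine markers. The count rose to 3 of 6 for ganglion cell markers and to 3 of 6 for endothelial markers. It stayed at 2 of 5 pericyte, 1 of 5 astrocyte, 1 of 5 pigment epithelium and 0 of 6 microglia markers. H3K27me3 lay at 2 of 10 Müller glia markers, Rlbp1 and Sox9, and at 0 of 8 rod markers, against 23.3% of all protein-coding genes. It lay at 4 of 6 amacrine, 4 of 6 ganglion cell, 3 of 6 bipolar and 1 of 6 cone markers. Outside the neurons it was at 2 of 6 microglia, 1 of 6 endothelial, 0 of 5 pericyte, 1 of 5 astrocyte and 1 of 5 pigment epithelium markers. The median H3K4me3 island at gene ends was 14.1 and 15.5 kb wide at the marked rod genes against 6.0 and 4.8 kb at the marked Müller glia genes (Exp1 and Exp2). The share of neurons in the preparation is not known, so a mark described below need not lie in Müller glia, and 2 marks found together may come from different cells. Fewer cells carrying a mark and a weaker mark per cell cannot be told apart in such lists.

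The classes of the pathway differed in the marks at their ends. H3K4me3 lay at an end of 32 of the 46 genes (69.6%), against 58.6% of all protein-coding genes. It was at 10 of 10 Frizzled receptors, 2 of 2 LRP co-receptors, 4 of 4 TCF/LEF factors, 5 of 8 antagonists and 2 of 3 intracellular genes, but at 9 of 19 Wnt ligands (47.4%). Median H3K4me3 coverage of the 46 genes was 6.23%, against 4.57% for all genes. That difference depended on the setting: the medians were 5.09% and 4.85% with 10 kb around the gene. Among islands at or below the median p of their list they were 0% and 0.313%. H3K27me3 lay at an end of 19 of the 46 (41.3%), against 23.3% of all genes. Of these 19, 15 were Wnt ligands, and the other 4 were Fzd8, Fzd10, Sfrp5 and Lef1, out of 27 genes that are not ligands (14.8%). Both marks at the same end were found at 10 of the 46 (21.7%), against 5.74% of all genes.

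**Figure D1:**
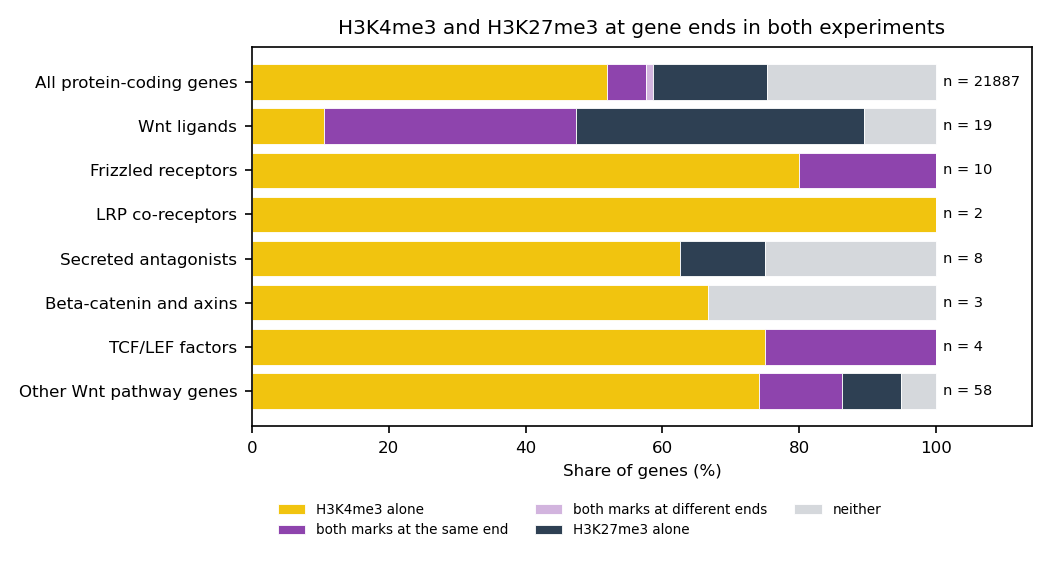
Horizontal bars show the share of genes (%) in each state of H3K4me3 and H3K27me3 at gene ends in both experiments, for all protein-coding genes, the 6 classes and 58 other Wnt pathway genes, with the number of genes at the right. The H3K27me3 states fill most of the bar of the Wnt ligands (15 of 19), while H3K4me3 alone fills most of the bar of the Frizzled receptors (8 of 10).

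By state, 22 of the 46 genes had H3K4me3 alone, against 51.9% of all genes. They were the ligand genes Wnt2 and Wnt5b, the receptors Fzd1 to Fzd7 and Fzd9, Lrp5, Lrp6, Dkk2, Dkk3, Sfrp1, Sfrp2, Sfrp4, Axin2, Ctnnb1, Tcf7, Tcf7l1 and Tcf7l2. Both marks at the same end were found at Wnt2b, Wnt5a, Wnt6, Wnt7b, Wnt9a, Wnt10a, Wnt11, Fzd8, Fzd10 and Lef1. H3K27me3 without H3K4me3 was found at 9 genes, against 16.6% of all genes: Wnt1, Wnt3, Wnt3a, Wnt4, Wnt7a, Wnt8b, Wnt9b, Wnt10b and Sfrp5. Neither mark was found at the ends of 5 genes, Wnt8a, Wnt16, Dkk1, Dkk4 and Axin1, against 24.8% of all genes. Both marks at different ends were found at 0 of the 46, against 0.937% of all genes. The state read from Exp1 alone equalled that from Exp2 alone at 36 of the 46 genes, against 87.5% of all genes.

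**Figure D2:**
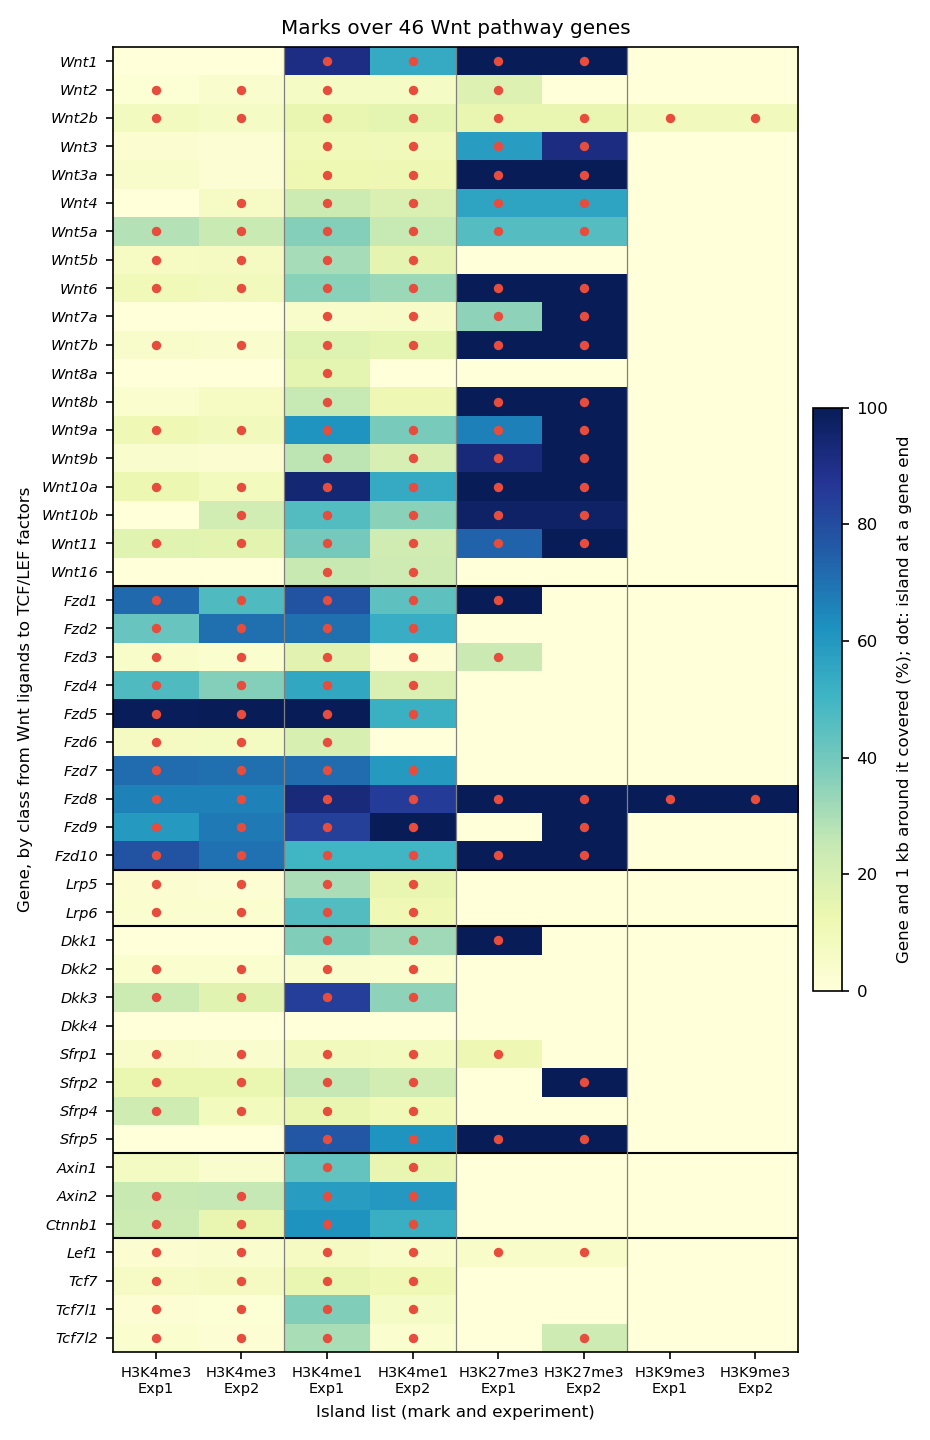
Tiles show the percentage of each gene and 1 kb on each side that islands cover, for 46 genes (rows, by class) and 8 lists (columns, mark and experiment), and a dot marks an island at a gene end in that list. Dark H3K27me3 tiles gather in the Wnt ligands, dark H3K4me3 tiles in the Frizzled receptors, and H3K9me3 is seen at Wnt2b and Fzd8 alone.

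To show what the starts of genes in these states look like, the 250 bases before the annotated start are printed for 1 gene of each state, from RefSeq on GRCm38.p6, 5′ to 3′ on the strand of the gene, with CpG dinucleotides in capitals. Fzd4 had H3K4me3 alone, Wnt2b both marks, Wnt1 H3K27me3 alone and Wnt16 neither. The start used here is that of the RefSeq promoter table, which for Wnt16 falls inside the gene as the gene table draws it, so the last bases of its stretch lie within that gene.
Fzd4 (chr7:89404116-89404365, plus strand): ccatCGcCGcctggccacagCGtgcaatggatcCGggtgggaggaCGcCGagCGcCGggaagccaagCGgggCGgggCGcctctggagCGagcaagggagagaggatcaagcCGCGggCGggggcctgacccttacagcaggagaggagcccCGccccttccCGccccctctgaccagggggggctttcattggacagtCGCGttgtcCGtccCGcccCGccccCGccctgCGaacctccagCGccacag
Wnt2b (chr3:104961710-104961959, minus strand): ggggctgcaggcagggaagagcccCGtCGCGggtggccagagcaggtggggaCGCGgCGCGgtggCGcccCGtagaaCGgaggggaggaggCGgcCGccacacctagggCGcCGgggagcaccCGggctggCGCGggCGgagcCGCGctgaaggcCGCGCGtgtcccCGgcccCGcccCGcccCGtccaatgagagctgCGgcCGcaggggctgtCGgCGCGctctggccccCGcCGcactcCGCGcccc
Wnt1 (chr15:98789607-98789856, plus strand): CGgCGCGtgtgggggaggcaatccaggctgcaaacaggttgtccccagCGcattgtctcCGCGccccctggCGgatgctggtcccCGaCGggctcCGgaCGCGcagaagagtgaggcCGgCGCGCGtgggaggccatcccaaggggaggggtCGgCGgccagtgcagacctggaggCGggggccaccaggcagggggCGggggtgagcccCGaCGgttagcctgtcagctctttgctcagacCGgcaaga
Wnt16 (chr6:22287977-22288226, plus strand): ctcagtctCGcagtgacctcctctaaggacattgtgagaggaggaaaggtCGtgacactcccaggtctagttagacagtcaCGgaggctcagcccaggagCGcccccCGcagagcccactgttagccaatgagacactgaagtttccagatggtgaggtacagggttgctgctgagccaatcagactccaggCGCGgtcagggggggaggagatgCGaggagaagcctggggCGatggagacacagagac
Fzd4 holds 25 CpG in this stretch, Wnt2b 36, Wnt1 23 and Wnt16 9. A sequence was at hand for 31 of the 46 genes, and those without one are Wnt5a, Wnt7b, Wnt8a, Wnt10a, Fzd2, Fzd3, Fzd6, Fzd8, Lrp5, Lrp6, Dkk3, Dkk4, Sfrp1, Sfrp4 and Axin1. The median over the 31 was 25 CpG, with a range of 5 to 48, against a median of 10 over 17492 protein-coding genes. The CpG were counted before this start, while the states come from either gene end. The 9 genes with H3K27me3 alone had a median of 22 CpG, against 2 over all genes in that state. The comparison is not like for like in H3K9me3. Of all 3640 genes in that state, with or without a sequence, 2143 also had H3K9me3 at an end, against 0 of the 9. Of these 9, Wnt9b (22 CpG) carried H3K4me3 at the RefSeq start in both experiments, and Wnt2 (20 CpG), counted under H3K4me3 alone, carried it there in Exp2 alone. Among these 9, Wnt4 (44) and Wnt3a (41) were at the top of the range and Wnt8b (5) at the bottom. The 6 genes with both marks had a median of 36.5 CpG against 14 over all genes in that state, and the 14 with H3K4me3 alone had 27 against 17. Dkk1 (6 CpG) and Wnt16 (9 CpG), the 2 genes with neither mark and a sequence, were lowest as a group. The letters CTTTGAA or CTTTGAT, a core to which TCF/LEF factors are known to bind, were searched on both strands, and lay in 2 of the 31 stretches (6.45%), those of Wnt11 and Dkk1, against 7.01% of all 17492. The pair of motifs shares its first 6 letters, and a match is a description of the letters only.

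**Figure D3:**
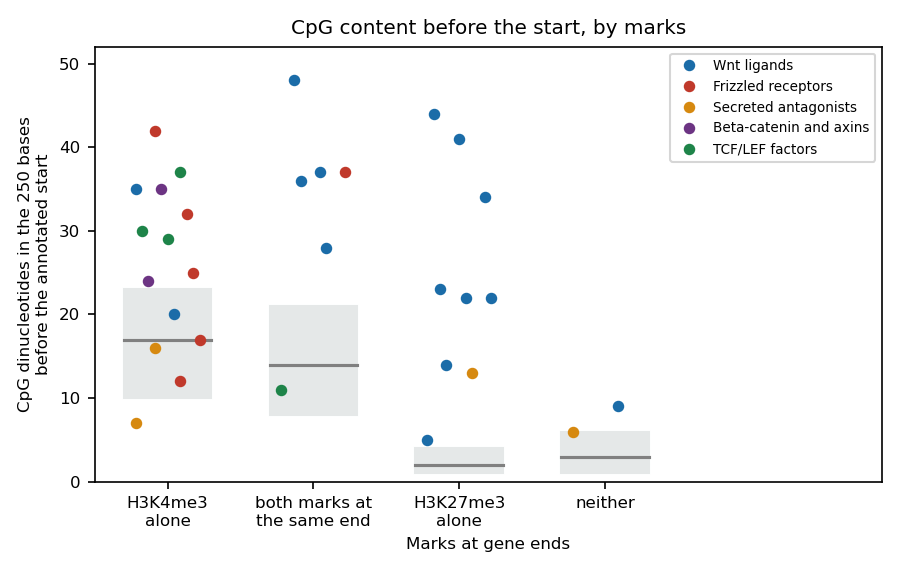
Points show the number of CpG dinucleotides in the 250 bases before the annotated start (vertical axis) of 31 genes, coloured by class and grouped by the state read from either gene end (horizontal axis), with the median (line) and the middle 50% (grey box) of all protein-coding genes in each state. In the group with H3K27me3 alone, all 9 points, Wnt9b with H3K4me3 at the RefSeq start among them, lie above the median of 2 for all genes in that state. Of all 3640 genes in that state, 2143 also had H3K9me3 at an end, against 0 of the 9.

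Among the ligands, the genes with H3K27me3 alone lacked H3K4me3 at their ends, though 4 of the 8 had it inside the gene. Wnt1 (chr15:98789857-98793830), the founding member of the family and a gene of midbrain patterning, had no H3K4me3 island in either experiment. It lay wholly under H3K27me3 islands 40 kb (Exp1) and 85 kb (Exp2) wide. Wnt7a, which takes part in brain vessel growth, also had no H3K4me3 island, and H3K27me3 covered 35.1% of it in Exp1 and 100% in Exp2. Wnt8b, a ligand of the embryonic forebrain, lay under the broadest H3K27me3 islands of the set, 510 and 460 kb wide, which also reached the astrocyte marker Pax2. H3K4me3 islands lay within Wnt3 (1.2 and 1.0 kb), Wnt3a (2.0 and 1.0 kb), Wnt8b (0.8 and 1.6 kb) and Wnt9b (1.8 and 1.2 kb), at neither end of the gene as the table draws it. Axin1 was the only gene of the set outside the ligands with this pattern, with internal islands of 4.8 and 2.6 kb. Together these 5 of 46 genes (10.9%) stood against 3.86% of all genes. Counted anywhere in the gene, H3K4me3 was thus at 37 of the 46, against 63.1% of all genes. It was absent from the gene and 1 kb around it in both experiments at 7, Wnt1, Wnt7a, Wnt8a, Wnt16, Dkk1, Dkk4 and Sfrp5, against 33.8% of all genes. Another 2, Wnt4 and Wnt10b, had it in Exp2 alone. At Wnt9b the internal islands lay at the start given in the RefSeq promoter table, which falls inside the gene as drawn here, so this gene carries both H3K4me3 and H3K27me3 when that start is used. At Wnt2 that start is marked by H3K4me3 in Exp2 alone. Wnt6, counted under both marks, carried H3K4me3 at its 3′ end (1.0 and 0.6 kb) and also at its RefSeq start inside the gene.

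Ligand genes with both marks had H3K4me3 islands inside wider H3K27me3 islands. Wnt5a, a ligand of beta-catenin-independent signalling (chr14:28504543-28527448), had H3K4me3 islands of 4.4 kb (Exp1) and 3.6 kb (Exp2) and H3K27me3 islands of 15 kb in both. This was the smallest H3K27me3 island at any of these genes, and it covered 46% of the gene in each experiment. Wnt2b, known from the ciliary margin of the retina (chr3:104944805-104961709), had H3K4me3 islands of 2.2 and 1.2 kb and H3K27me3 islands of 20 kb in both, reaching over 14.3% of the gene. Wnt7b, a partner of Wnt7a in brain vessel growth (chr15:85535437-85581821), had H3K4me3 islands of 3.0 and 1.8 kb, and H3K27me3 islands of 195 and 200 kb covered it whole. At Wnt11, a ligand of cell movement in gastrulation, H3K4me3 islands were 2.2 and 1.8 kb wide and H3K27me3 islands 25 and 80 kb. Wnt9a had 3.2 and 2.6 kb of H3K4me3 under H3K27me3 of 85 and 105 kb, and Wnt10a 1.8 and 1.2 kb under 100 kb in both. At Wnt10a the H3K4me3 lay only at the end of higher coordinate. No strand was at hand for Wnt5a, Wnt7b or Wnt10a, so whether their marked end is the start cannot be told here. The H3K27me3 of the ligands with both marks thus ranged from part of the gene at Wnt5a and Wnt2b to whole-gene coverage at Wnt6, Wnt7b and Wnt10a.

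The ligands Wnt8a and Wnt16 had no H3K27me3 in either experiment and no H3K4me3 at an end. Wnt16, known for its part in bone, had H3K4me1 islands of 3.4 and 3.0 kb and none of the other 3 marks. Wnt8a, a ligand of the early embryo, had a single H3K4me1 island of 1.2 kb in Exp1. Wnt2, a ligand of lung and placenta development, had H3K4me3 islands of 0.8 and 2.0 kb at an end. Wnt5b was the ligand with H3K4me3 and no H3K27me3 anywhere in either experiment. The islands at its end were 1.8 and 2.8 kb wide, and an end of Fbxl14 lies within 2 kb, so these islands cannot be assigned to 1 of the genes. Well inside Wnt5b lay wider H3K4me3 islands, 5.8 kb (Exp1) and 5.2 kb (Exp2) across, with an authors' p-value of 0 in both.

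Calls that differed between experiments were few for H3K4me3 and more frequent for H3K27me3. H3K4me3 differed at 2 of the 46 genes (4.35%), against 2.94% of all genes, and both were ligands with H3K27me3. Wnt4, a ligand of kidney and gonad development, had no H3K4me3 island in Exp1 and 1 of 1.4 kb in Exp2, under H3K27me3 islands of 250 and 260 kb. Wnt10b, which acts in bone and fat formation, had none in Exp1 and 2.0 kb in Exp2, and H3K27me3 covered 97% of it in both. Within single experiments H3K4me3 lay at 32 genes in Exp1 and 34 in Exp2, against 59.6% and 60.6% of all genes. H3K27me3 lay at 24 and 22 genes, against 29.3% and 27.1% of all genes. It was at an end in 1 experiment alone at 8 of the 46 genes (17.4%), against 9.68% of all genes. Exp1 alone had it at Wnt2 (45 kb), Fzd1 (50 kb), Fzd3 (60 kb), Sfrp1 (85 kb) and Dkk1 (65 kb). Exp2 alone had it at Fzd9 (120 kb), Sfrp2 (60 kb) and Tcf7l2 (170 kb). All of these but Dkk1 had H3K4me3 in both experiments, and at all of those but Tcf7l2 it lay at the same end as the H3K27me3 of the 1 experiment. In each experiment taken alone, both marks shared an end at 14 of the 46 genes, against 7.83% of all genes in Exp1 and 8.48% in Exp2.

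Neighbouring ligand genes shared their H3K27me3 islands. Wnt1 and Wnt10b, Wnt3 and Wnt9b, Wnt3a and Wnt9a, and Wnt6 and Wnt10a are pairs side by side in the genome, and in each experiment 1 island reached both genes of a pair. The island over Wnt1 and Wnt10b was 40 kb wide in Exp1, against 85 kb in Exp2. The islands over Wnt3 and Wnt9b were 70 and 105 kb wide, those over Wnt3a and Wnt9a 85 and 105 kb, and that over Wnt6 and Wnt10a 100 kb in both. The 15 ligand genes marked in both experiments are therefore not 15 separate regions. In Exp1, 16 marked ligands lay under 12 islands, and in Exp2 15 lay under 11. The 2 genes of a pair did not always carry the same H3K4me3, since Wnt9a had it at an end and Wnt3a did not. Median H3K27me3 coverage of the 19 ligands was 83.4%, against 11.7% for the 46 genes and 0% for all genes. For the 46 genes the median was 8.19% in Exp1 alone and 0% in Exp2 alone, so it depends on how the experiments are combined. The whole gene lay under H3K27me3 in both experiments at Wnt1, Wnt3a, Wnt6, Wnt7b, Wnt8b, Wnt10a, Fzd8, Fzd10 and Sfrp5, 9 of the 46, against 17.4% of all genes. No H3K27me3 was found in either experiment at 19 of the 46, against 64.1% of all genes, and of the ligands these were Wnt5b, Wnt8a and Wnt16. H3K27me3 islands at the marked ligands had median widths of 70 and 105 kb (Exp1 and Exp2), below the 265 and 250 kb at all marked genes.

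**Figure D4:**
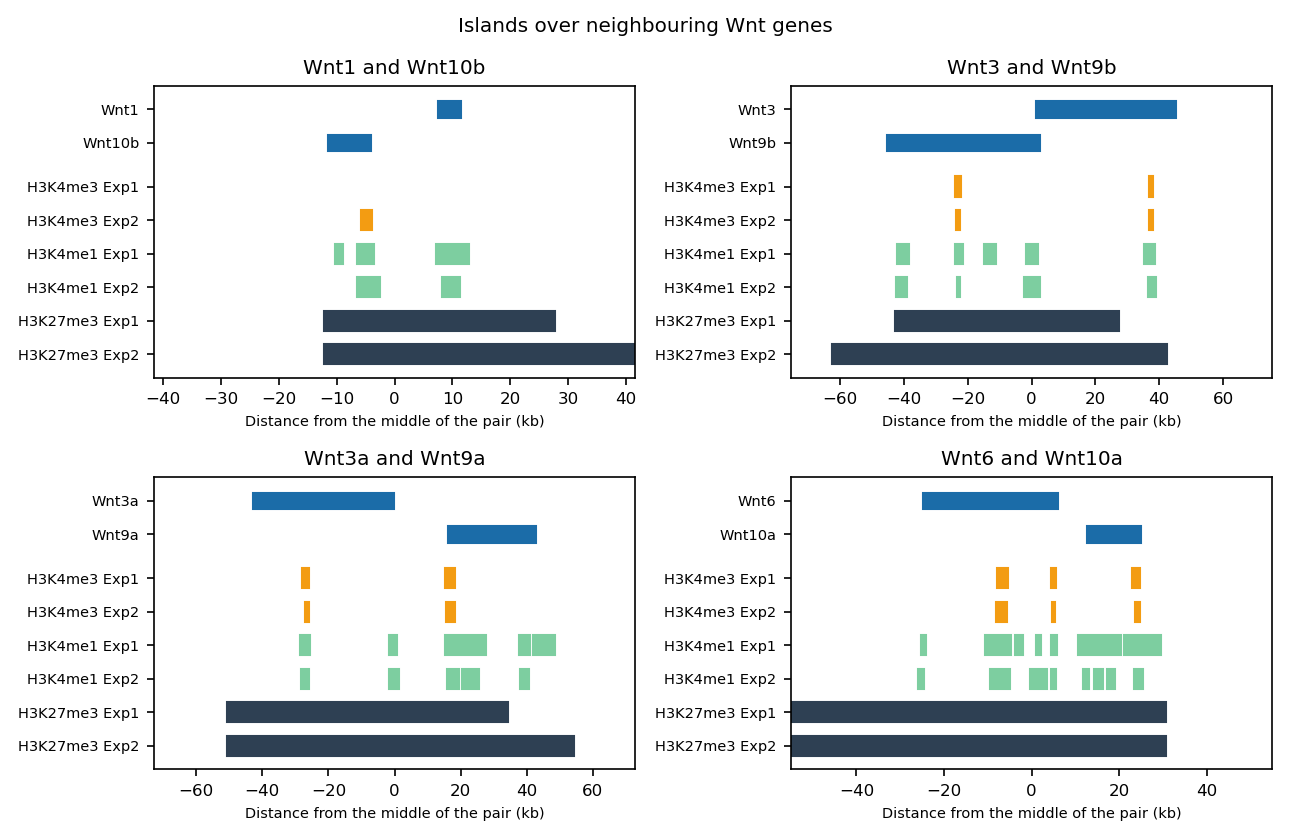
Each panel maps 1 pair of neighbouring Wnt genes, with the genes at the top and the islands of H3K4me3, H3K4me1 and H3K27me3 in Exp1 and Exp2 below, against distance from the middle of the pair (kb), and islands that run past a panel are cut at its edge. A single H3K27me3 island spans both genes of each pair, wholly or in part, in each experiment, while the H3K4me3 islands are short and separate.

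The Frizzled receptors, the Wnt-binding receptors of the pathway, all carried H3K4me3. The median island at their ends was 4.8 kb wide in Exp1 and 4.1 kb in Exp2, against 3.4 and 2.8 kb at all marked genes and 2.2 and 1.8 kb at the 9 marked ligands. Their median H3K4me3 coverage was 61.7%, against 4.57% of all genes, but Frizzled genes are short, with a median length of 4.59 kb against 17.2 kb, so an island of a given width fills more of them. The mark lay at both ends of Fzd5, Fzd7, Fzd8, Fzd9 and Fzd10, which was 5 of the 46 genes (10.9%) against 7.05% of all genes. Fzd5, a receptor of eye development (chr1:64730558-64737750), had H3K4me3 islands 10.2 kb wide in both experiments, covering 99.5% and 100% of the gene. By the smaller of its 2 widths it ranked 127 of the 12823 marked genes. Fzd4 (chr7:89404366-89410110) had islands of 5.0 and 3.6 kb and no H3K27me3, and an end of Tmem135 lies within 2 kb of the marked end. Fzd7 had 5.0 and 4.8 kb, Fzd2 2.8 and 4.6 kb, and Fzd6, at the low end of the class, 2.6 and 2.4 kb.

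Fzd8 and Fzd10 had H3K27me3 in both experiments, and 3 other receptors had it in 1. Fzd10 (chr5:128601106-128604093) had H3K4me3 islands of 7.4 and 5.2 kb, wider than the median of its class, and lay whole under H3K27me3 islands of 185 and 195 kb. At Fzd8 H3K4me3 islands were 6.0 and 5.4 kb wide, H3K27me3 islands 215 and 175 kb, and H3K9me3 islands 183 and 174 kb, so that all 4 marks lay over it. H3K27me3 in Exp1 alone covered 100% of Fzd1 (H3K4me3 4.6 and 3.0 kb) and 23.6% of Fzd3 (3.4 and 2.4 kb). Exp2 alone had H3K27me3 over 100% of Fzd9 (H3K4me3 3.2 and 2.8 kb). The class is therefore uniform in H3K4me3 and split in H3K27me3, with Fzd2, Fzd4, Fzd5, Fzd6 and Fzd7 free of it in both experiments.

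**Figure D5:**
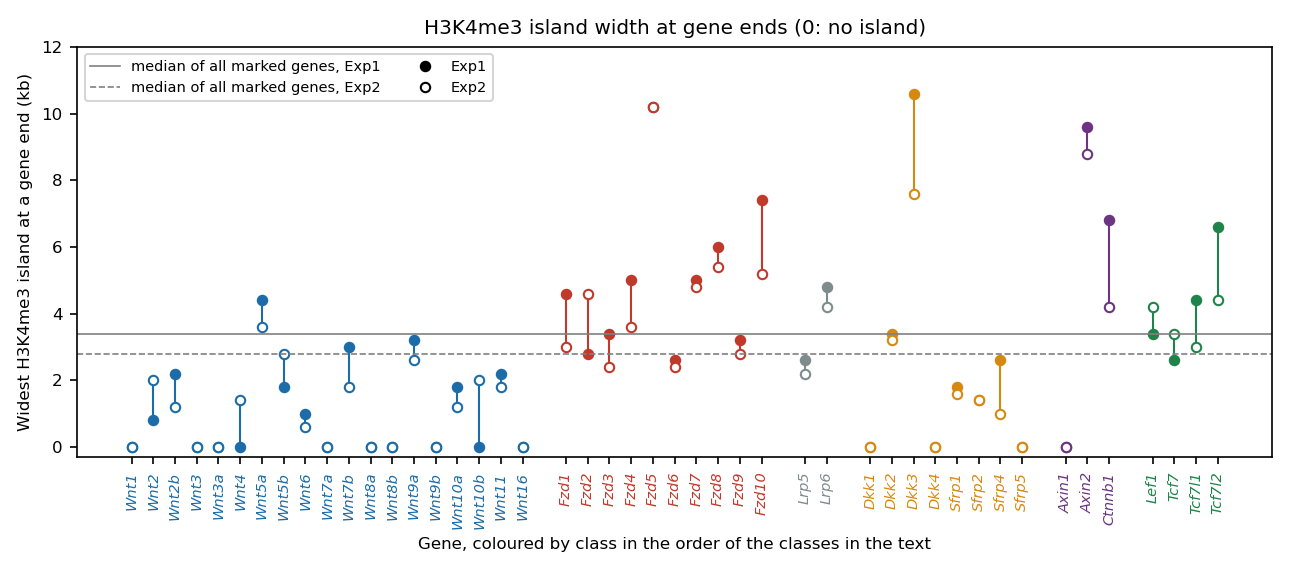
Points give the width (kb) of the widest H3K4me3 island at an end of each of the 46 genes, in Exp1 (filled) and Exp2 (open), joined by a line and coloured by class, with 0 for no island and horizontal lines for the medians of all marked genes in each experiment. Fzd5, Dkk3 and Axin2 stand highest, and the ligands lie at or below 4.4 kb.

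The co-receptors Lrp5 (chr19:3584825-3686585) and Lrp6 (chr6:134446476-134566913) carried H3K4me3 and no H3K27me3. The H3K4me3 islands were 2.6 and 2.2 kb wide at Lrp5 and 4.8 and 4.2 kb at Lrp6. Lrp6 lay above the median of all marked genes in both experiments and Lrp5 below it. Fzd4 and Lrp5 also form the receptor of Norrin, a ligand unrelated to Wnt that drives retinal vessel growth and is encoded by Ndp. Ndp had H3K4me3 islands of 2.2 and 1.6 kb and no H3K27me3 at its ends. Tspan12, the tetraspanin of that receptor, had no H3K4me3 at an end, and H3K27me3 of 85 kb in Exp1 alone. Inside Tspan12, H3K4me3 covered 1.81% (Exp1) and 1.45% (Exp2) of the gene region.

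The secreted antagonists were mixed. Dkk3 (chr7:112116019-112159482), the divergent Dickkopf gene whose regulatory sequence is used to drive Cre in retinal progenitors, had the widest H3K4me3 island of the 46 genes in Exp1, 10.6 kb, with 7.6 kb in Exp2, and no H3K27me3. It ranked 330 of 12823 by the smaller width. Dkk2 had 3.4 and 3.2 kb of H3K4me3. Dkk1, the prototype LRP-binding antagonist, had no H3K4me3 in either experiment and lay whole under H3K27me3 in Exp1, with none in Exp2. Dkk4 had none of the 4 marks in the gene or 1 kb around it in either experiment. Among the Sfrp genes, H3K4me3 islands were 1.8 and 1.6 kb wide at Sfrp1, 1.4 kb in both at Sfrp2, and 2.6 and 1.0 kb at Sfrp4, all below the median of marked genes. Sfrp5 had no H3K4me3 and lay whole under H3K27me3 islands of 85 and 140 kb. H3K27me3 in 1 experiment covered 11.5% of Sfrp1 (Exp1) and 100% of Sfrp2 (Exp2), so Sfrp4 was the Sfrp gene without it in either.

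Of the intracellular genes, Axin2 and Ctnnb1 had wide H3K4me3. Axin2 (chr11:108917828-108950783), a scaffold of the destruction complex and a direct target by which the pathway limits itself, had islands of 9.6 kb (Exp1) and 8.8 kb (Exp2) and ranked 209 of 12823. At Ctnnb1 (chr9:120933400-120960507), which encodes beta-catenin, they were 6.8 and 4.2 kb. Neither gene, nor Axin1, had H3K27me3 or H3K9me3 in either experiment. The 3 genes with the widest H3K4me3, by the smaller of the 2 widths, were thus Fzd5, a receptor, Axin2, a feedback inhibitor, and Dkk3, an antagonist.

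All 4 TCF/LEF factors, the DNA-binding partners of beta-catenin, carried H3K4me3, and Lef1 alone carried H3K27me3 in both experiments. Lef1 (chr3:131110297-131224357) had H3K4me3 islands of 3.4 and 4.2 kb. Its H3K27me3 island was the same in both experiments, 35 kb, of which 30.3 kb lay upstream and 4.70 kb inside the gene, so that 4.91% of the gene region was covered. Tcf7l2 (chr19:55741797-55933659) had H3K4me3 of 6.6 and 4.4 kb at its 5′ end, and in Exp2 an H3K27me3 island of 170 kb at its other end. In Exp2 H3K27me3 also lay within 1 kb of a start given for Tcf7l2 in the RefSeq promoter table. Tcf7 (2.6 and 3.4 kb) and Tcf7l1 (4.4 and 3.0 kb) had H3K4me3 and no H3K27me3.

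H3K4me1 was found at nearly the whole set, whichever of the other marks was there. It lay at an end of 42 of the 46 genes (91.3%), against 54.6% of all genes, and of the other 4, Wnt8a (1.2 kb), Wnt8b (7.0 kb) and Fzd6 (3.4 kb) had it in Exp1 alone and Dkk4 in neither experiment. H3K4me1 was at 21 of the 22 genes with H3K4me3 alone and at all 10 with both marks. Over all genes in those 2 states the shares were 83.2% and 85.8%. Of the 9 genes with H3K27me3 and no H3K4me3, 8 had H3K4me1, against 11.5% of the 3640 genes in that state. Of those 3640 genes, 2143 also had H3K9me3 at an end, against 0 of the 9. The combination of H3K4me1 with H3K27me3 and no H3K4me3 was found at 1.91% of all genes. At Wnt1 the H3K4me1 islands were 5.8 and 3.2 kb wide, covering 90.9% and 53.6% of the gene. At Sfrp5 they were 4.6 and 2.6 kb, at Wnt10b 3.0 and 4.0 kb, at Wnt4 3.6 and 2.4 kb, at Wnt3a 2.4 and 3.2 kb and at Wnt7a 2.2 and 3.0 kb. Wnt3 and Wnt9b, whose ends overlap, shared an H3K4me1 island, 3.8 kb wide in Exp1 and 5.0 kb in Exp2. Wnt8b, the exception among the 9, had an island at an end in Exp1 alone. The widest H3K4me1 islands at gene ends were those of Exp1 at Axin2 (20.6 kb), Lrp6 (20.2 kb), Dkk3 (20 kb) and Ctnnb1 (16.8 kb). At Axin2 the stretch of this island held 3 islands in Exp2, of 3.6, 10.8 and 2.8 kb, and coverage of the gene was 58.3% in Exp1 and 60.0% in Exp2. Ctnnb1 had 1 island of 15.2 kb in Exp2, with coverage of 61.5% and 52.2%. Coverage was lower in Exp2 at Lrp6 (46.2% and 11.1%) and at Dkk3 (84.2% and 34.8%), where the widest islands of Exp2 were 5.0 and 5.8 kb, inside the genes. In single experiments H3K4me1 was at 45 genes in Exp1 and 42 in Exp2, against 66.2% and 56.5% of all genes. Median H3K4me1 coverage of the 46 genes was 23.5%, against 12.4% of all genes.

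Distal H3K4me1 regions, over 2.5 kb from any gene end and covered in both experiments, were counted inside each gene and up to 10 kb around it. Such a region could be the tail of an island that touches a gene end, as at Ctnnb1 (13.3 kb). RefSeq starts inside a gene, as at Wnt9b, were not left out, so a region need not be separate from a promoter. At least 1 region was found at 29 of the 46 genes, against 48.3% of all genes. They were at 14 of 19 ligands, 4 of 10 Frizzled receptors, 2 of 2 LRP genes, 2 of 8 antagonists, 3 of 3 intracellular genes and 4 of 4 TCF/LEF factors, and at 0 of 4 Sfrp genes. With regions at least 5 kb from gene ends the count over the 46 genes was 17, against 31.4% of all genes. The largest number, 4, was at Wnt9b, Lrp5, Lrp6 and Dkk3. Axin2 (13.7 kb), Dkk3 (13.6 kb), Ctnnb1 (13.3 kb), Lrp5 (10.5 kb) and Lrp6 (10.4 kb) had the most distal H3K4me1 sequence. Longer genes have more room for such regions, and the medians of gene length were 111 kb for the LRP and 138 kb for the TCF/LEF genes against 4.59 kb for the Frizzled genes.

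H3K9me3 was scarce in the set. It lay at an end of 2 of the 46 genes (4.35%), against 13.4% of all genes, and at the same 2 in each experiment alone, against 16.7% in Exp1 and 14.8% in Exp2. The other 44 had none in the gene or 1 kb around it in either experiment, against 76.9% of all genes. At Fzd8 it covered the whole gene, together with H3K27me3. At Wnt2b an island of 18 kb reached 9.04% of the gene region in both experiments, and the authors' p-value of that island was 5.83e-05 in Exp1 and 0.0435 in Exp2. Wnt2b and Fzd8 thus carried all 4 marks, with the repressive marks over the whole gene at Fzd8 and at 1 end of Wnt2b.

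The authors' p-values of the islands also differed between the classes, a difference given here without a test. When islands were kept only if their p-value was at or below the median of their own list, H3K4me3 remained at an end of 11 of the 46 genes, against 40.7% of all genes. They were Fzd1 to Fzd5, Fzd8, Lrp6, Dkk3, Axin2, Ctnnb1 and Tcf7l2, and no ligand was among them (0 of 19). The islands inside Wnt5b and inside Axin1, away from the gene ends, also lay in this part of the lists in both experiments. H3K27me3 then remained at 15 genes, of which 13 were ligands, against 18.8% of all genes. Both marks at the same end were left at 0 of the 46 genes, against 0.95% of all genes, and H3K9me3 at 0, against 11.2%. H3K4me1 was at 31 genes, against 32.3% of all genes. Each of the 10 genes with both marks therefore has at least 1 island in the weaker part of its list.

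Most other genes of the pathway, counted over 58 genes in 6 lists, carried H3K4me3 without H3K27me3. H3K4me3 lay at 50 of the 58 (86.2%), against 58.6% of all genes, and 43 (74.1%) were in the state of H3K4me3 alone, against 51.9%. H3K27me3 lay at 12 (20.7%), close to the 23.3% of all genes. In ligand secretion, H3K4me3 was at 3 of 3 and H3K27me3 at 2, the carrier Wls and the deacylase Notum, and not at Porcn, the acyltransferase of Wnt proteins. Of 12 extracellular modulators 9 had H3K4me3 and 4 H3K27me3, the latter being Rspo1, Rspo4 and Sost in the state of H3K27me3 alone and Draxin with both marks. In Exp1 alone Sost also had H3K4me3 (1.2 kb) at the same end as H3K27me3. Of 11 membrane proteins 8 had H3K4me3, and H3K27me3 was at Lgr5 with H3K4me3 and alone at Lgr6 and Ror2. In Exp2 alone Ror2 also had H3K4me3 (1.2 kb) at the same end as H3K27me3. Among 7 genes of planar polarity, 15 cytoplasmic and 10 nuclear genes, H3K4me3 was at 7, 13 and 10, and H3K27me3 at 1 each, Celsr1, Dact2 and Tle3. Csnk1e had neither mark at an end in either experiment, but H3K4me3 inside the gene covered 12.1% (Exp1) and 7.55% (Exp2) of its region. Nkd2 had H3K27me3 (50 kb) in Exp1 alone and H3K4me3 (1.0 kb) in Exp2 alone. The R-spondin genes Rspo1 (H3K27me3 70 kb in both) and Rspo4 (60 and 50 kb) thus had the state of 8 of the 19 ligands. Rspo2 and Rspo3 had H3K4me3 in both experiments, and Rspo3 also had H3K27me3 of 50 kb in Exp1.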

How the data were processed

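Groups are the 4 marks named in the labels, and replicates the experiment numbers. The 10 libraries include 2 inputs, which were not analysed here. Per the labels' protocols, chromatin of 25000 cells was used per immunoprecipitation. Per the submitters' processing notes the build was mm10 and the tools were SICER, BWA 0.7.5a, bedtools 2.17, SAMtools 1.3.1 and FastQC. The deposited files give each island a position and a p-value. Not given in the sources used here: SICER's settings, and whether the value is a p or a q. Island edges fell on steps of 200 bp for H3K4me3 and H3K4me1, 5000 bp for H3K27me3 and 3000 bp for H3K9me3, and islands lay at least 800, 800, 35000 and 24000 bp apart, so the repressive marks were called more coarsely. Lists held 16761 and 20169 islands of H3K4me3, 52342 and 37200 of H3K4me1, 7743 and 4105 of H3K27me3, and 9690 and 5621 of H3K9me3 (Exp1 and Exp2). Read depth is unknown.

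Gene positions are those of RefSeq GRCm38.p6, whose coordinates equal mm10, and 21887 of 21900 protein-coding genes lie on the chromosomes of the lists. The table gives no strand, so both gene ends were used, with windows of 1 kb and an overlap of at least 1 bp, and islands that belong to a neighbour can be counted. Calculations were done in Python 3.11.15 with pandas 2.3.3 and NumPy 2.4.6, and the overlap code was checked on simulated data. Each mark had 2 experiments of 1 condition and no groups to compare, so no p-value was computed.

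The genes, lists and naming rules were chosen with earlier results of these data known. Values are given in full for genes with both marks, with H3K9me3, with calls that differ between experiments (the first 8), with the widest H3K4me3 and the largest H3K27me3 coverage (9 genes tie at 100%), and for a fixed set. Other pathway genes are named where their state is not the commonest of their list. Alternatives were each experiment alone, either experiment, other windows and overlaps, islands of lower p-value, whole genes, annotated starts, other distances, and ends far from other genes.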

Additional observations from a re-analysis of the deposited data

How the results depend on the processing

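Of 75 values recomputed under alternatives, 65 stayed within 1.5 times the reported count, or within 1 SD of the reported median, and 10 moved. The SD is that of the medians of Exp1 alone and Exp2 alone, so these 2 medians were judged by a spread they set themselves. For H3K9me3 every median was 0, with an SD of 0. The count of 65 is therefore not a measure of how stable the medians are. With a mark in either experiment, 18 of the 46 genes had both marks at the same end, in place of 10 (10.8% of all genes). Among islands at or below the median p of their list, H3K4me3 was at 11 genes in place of 32, H3K9me3 at 0 in place of 2 and both marks at 0, and the median coverage fell to 0 for H3K4me3 and 0 for H3K27me3. Median H3K4me3 coverage, 6.23%, was 5.15% over the gene alone and 5.09% with 10 kb around it, against 3.51% and 4.85% for all genes. Among islands at or below the median p, the all-gene medians were 0.313% for H3K4me3 and 0% for H3K27me3. Leaving out 1 experiment gave a median H3K27me3 coverage of 0 to 8.19% in place of 11.7%, where 0 is the value without Exp1. Distal H3K4me1 regions were at 17 genes, in place of 29, when they had to lie 5 kb from gene ends. With 1 experiment left out, H3K4me3 was at 32 to 34 genes, H3K27me3 at 22 to 24 and H3K4me1 at 42 to 45. H3K9me3 was then at 2 and both marks at 14. Distal H3K4me1 was at 33 genes without Exp1 and 40 without Exp2, against 53.9% and 63.9% of all genes. Among ends with no other gene end within 2 kb, an alternative chosen after seeing the data, H3K4me3 was at 30 genes and both marks at the same 10. Of all genes, 42.6% then had H3K4me3 and 4.73% both marks, in place of 58.6% and 5.74%. No paired analysis was possible because the experiments share 1 condition and no result comes from a test. Depth is unknown, so a missing island does not show that a mark is absent.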
